A study of Mus musculus with 32 samples.

Results

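Dopamine is made from tyrosine by tyrosine hydroxylase (Th) and aromatic amino acid decarboxylase (Ddc), with the cofactor tetrahydrobiopterin (BH4), whose synthesis begins with GTP cyclohydrolase (Gch1). The vesicular monoamine transporter (Slc18a2) loads it into vesicles, the dopamine transporter (Slc6a3) takes it back up, and the D1 (Drd1) and D2 (Drd2) receptors sense it. In the hypothalamus, tuberoinfundibular dopamine neurons of the arcuate nucleus hold back prolactin release from the pituitary and carry the prolactin receptor (Prlr), which closes the feedback loop. Midbrain dopamine neurons, which lie just behind the hypothalamus and project to the striatum, use the same enzymes and transporters. These 8 genes were taken by their symbols from a table of 55401 mouse gene identifiers, using a GRCm38 annotation, and all 8 passed the filter on low counts, as did 19928 genes in all.

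Whole hypothalamus of male C57BL/6NTac mice was profiled by stranded RNA sequencing of total RNA, with 1 library per mouse. Hemizygous Gpr101 knockouts, which lack an X-linked Gs-coupled orphan receptor, received a control diet (KO_CD, 8 mice) or a high-fat diet (KO_HFD, 9 mice). Their wild-type littermates received the control diet (WT_CD, 7 mice) or the high-fat diet (WT_HFD, 8 mice). All mice ate standard chow until young adulthood and were killed at 149 or 150 days, and age went with diet: 5 KO_CD, 6 WT_CD, 1 KO_HFD and 1 WT_HFD mice were 149 days old.

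Each library held 25.3 to 34.2 M reads on genes, with a median of 27.7 M. Gpr101 itself had 2471 to 3472 reads in each wild-type library, 0 reads in all KO_CD libraries and 1 read over all KO_HFD libraries. The hypothalamic transcription factor genes Nkx2-1 (14.5 CPM per kb of exon) and Otp (18.8 CPM per kb) and the neuronal gene Snap25 (151 CPM per kb) were well represented. CPM scales a gene's reads to a common library total of reads on genes.

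Of the 8 genes, 0 passed the test for genotype, diet or their interaction in the 4-group fit, and the variation lay between mice of the same group. Slc6a3 spanned a 20.2-fold range between libraries, and Th, Drd2, Ddc and Slc18a2 correlated with it over the 32 libraries. Within single groups, which were not tested, r was 0.93 to 0.96 for Th and 0.55 to 0.95 for Drd2. For Ddc and Slc18a2 it was 0.17 and 0.27 in WT_CD, and 0.82 to 0.90 and 0.63 to 0.93 in the other groups. Transcripts that mark midbrain dopamine neurons, such as En1 and Chrna6, moved along the same axis. A list of 17 striatal genes passed with 0 of the 8, but its mean varied little within groups. The SD of that mean was 0.03 to 0.08 log2 units, against 0.32 to 0.48 for the midbrain list, and carry-over of striatal tissue was not tested. Correlations of Drd1 and Prlr with the other members did not pass.

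The 5 genes that varied together are the ones whose start regions are of interest for shared sequence. For each, the RefSeq promoter window of 300 bases (GRCm38.p6, 250 bases before the start and 50 after) was searched on both strands for a cAMP response element (TGACGTCA, its own reverse complement), the NBRE site bound by Nr4a2 (AAAGGTCA, or TGACCTTT on the other strand), a bicoid-type site as bound by Pitx3 (TAATCC, or GGATTA) and an engrailed-type site (TAATTA, its own reverse complement). The last 110 bases before the RefSeq start and the first 10 from it on are shown, in the direction of the gene, with matches in capitals. Ddc had 2 windows, and the more distal is shown. They lie at chr7:142899986-142900105 (minus strand) for Th, chr11:11898135-11898254 (minus) for Ddc, chr19:59260768-59260887 (plus) for Slc18a2, chr13:73536637-73536756 (plus) for Slc6a3 and chr9:49340293-49340412 (plus) for Drd2.
Th: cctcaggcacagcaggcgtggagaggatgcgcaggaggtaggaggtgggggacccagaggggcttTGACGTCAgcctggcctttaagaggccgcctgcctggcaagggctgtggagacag
Ddc: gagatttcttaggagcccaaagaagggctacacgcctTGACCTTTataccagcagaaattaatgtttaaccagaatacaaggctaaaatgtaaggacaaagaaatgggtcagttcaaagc
Slc18a2: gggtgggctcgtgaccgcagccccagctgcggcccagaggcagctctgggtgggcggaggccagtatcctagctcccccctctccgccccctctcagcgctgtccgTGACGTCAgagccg
Slc6a3: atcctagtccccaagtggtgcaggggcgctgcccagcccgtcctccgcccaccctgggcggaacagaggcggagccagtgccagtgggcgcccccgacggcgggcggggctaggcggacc
Drd2: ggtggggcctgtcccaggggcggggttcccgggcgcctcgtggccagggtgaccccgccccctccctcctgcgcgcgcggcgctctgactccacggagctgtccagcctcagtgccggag

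Th held the cAMP response element beginning 45 bases before its RefSeq start, and Slc18a2 held the same element beginning 4 bases before its RefSeq start. Across 32851 RefSeq promoter windows of the same length, 1.79% held this element. The more distal of the Ddc windows held an NBRE on the reverse strand beginning 73 bases before the start, a motif found in 1.51% of windows. The other Ddc window (chr11:11890359-11890658, minus strand) held none of the 4 motifs. The stretches shown for Slc18a2 and Drd2 end before the gene starts of the annotation used for the gene positions (chr19:59260896 and chr9:49340627). Which starts of these genes and of Ddc were used in these samples was not tested. Bicoid-type sites (7.06% of all windows) and engrailed-type sites (5.29%) were found in 0 of the 12 windows of the 8 genes. Slc6a3 and Drd2, which varied with Th, had none of the 4 motifs in these windows.

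Levels per length of exon were highest for Th, Ddc and the vesicular transporter gene Slc18a2, and lowest for Gch1. The order depends on the annotated exon length, which is 15339 bases for Prlr and 2364 for Th. Over the 32 libraries the mean level was 15.4 ± 3.65 CPM per kb for Th (SD, n = 32), 13.5 ± 1.42 for Ddc and 11.2 ± 1.70 for Slc18a2. Slc6a3 followed at 6.29 ± 5.10 CPM per kb and Drd2 at 6.24 ± 0.768. Prlr stood at 2.62 ± 0.193, Drd1 at 1.49 ± 0.223 and Gch1 at 1.04 ± 0.151. Neighbours from Th down to Drd2 overlapped within 1 SD of each other, whereas Drd2, Prlr, Drd1 and Gch1 were each separated from the next by more than their SDs.

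Th (ENSMUSG00000000214, chr7:142892752-142931128, minus strand, GRCm38) encodes the enzyme of the rate-limiting step of dopamine synthesis. Its normalized counts (reads divided by the library's size factor) ranged from 806 to 1338 in KO_CD with a median of 1029, from 677 to 1146 in WT_CD with a median of 1050.3, from 746 to 1750.1 in KO_HFD with a median of 948, and from 795 to 1668 in WT_HFD with a median of 957. The 4 groups overlapped over most of their ranges, and the highest values stood in 1 KO_HFD and 1 WT_HFD library. On control diet the log2 fold change of knockout against wild type was 0.10 (SE 0.17, limma adjusted p = 1). On high-fat diet it was -0.05 (SE 0.16, adjusted p = 0.989). The diet difference averaged over genotypes was 0.02 (SE 0.12, adjusted p = 0.965).

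Ddc (ENSMUSG00000020182, chr11:11814101-11898144, minus strand) encodes the decarboxylase shared by dopamine and serotonin neurons. Normalized counts of Ddc ranged from 1522 to 2137 in KO_CD (median 1702), from 1642 to 1758 in WT_CD (median 1716), from 1469 to 2161 in KO_HFD (median 1571) and from 1497 to 2119 in WT_HFD (median 1598). All WT_CD values lay inside the range of each other group. Genotype differences were 0.01 on control diet (SE 0.08, limma adjusted p = 1) and 0.002 on high-fat diet (SE 0.072, adjusted p = 1), and the diet difference was -0.06 (SE 0.05, adjusted p = 0.736).

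Gch1 (ENSMUSG00000037580, chr14:47153895-47189413, minus strand) encodes the enzyme that commits GTP to BH4 synthesis. For Gch1 the counts ranged from 132 to 231 in KO_CD (median 166), from 153 to 242 in WT_CD (median 188), from 145 to 233 in KO_HFD (median 167) and from 159 to 213 in WT_HFD (median 193). Medians were lower in the knockouts on both diets, with overlapping ranges. The genotype difference was -0.14 on control diet (SE 0.10, limma adjusted p = 1), -0.10 on high-fat diet (SE 0.09, adjusted p = 0.968) and -0.12 averaged over diets (SE 0.07, adjusted p = 0.868). The diet difference was 0.01 (SE 0.07, adjusted p = 0.979).

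Slc18a2 (ENSMUSG00000025094, chr19:59260896-59296012, plus strand) encodes the transporter that packs dopamine, noradrenaline, serotonin and histamine alike. Counts of Slc18a2 ranged from 1269.8 to 1808 in KO_CD (median 1563), from 1361 to 1791 in WT_CD (median 1662), from 1367 to 2396 in KO_HFD (median 1562) and from 1501 to 2365 in WT_HFD (median 1596). The ranges overlapped, and the 2 highest libraries were the ones in which Th was highest. Genotype differences were -0.04 on control diet (SE 0.11, limma adjusted p = 1) and -0.06 on high-fat diet (SE 0.10, adjusted p = 0.974). The diet difference was 0.08 (SE 0.07, adjusted p = 0.751).

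Slc6a3 (ENSMUSG00000021609, chr13:73536747-73578672, plus strand), whose product clears dopamine from the synapse, was the most variable of the 8 genes. Libraries ranged from 110.03 to 1259 in KO_CD (median 482), from 168 to 1073 in WT_CD (median 593), from 191 to 1903 in KO_HFD (median 439) and from 168 to 2219 in WT_HFD (median 549). Every group held libraries near the bottom of the range, and the coefficient of variation over all libraries was 81.1%, against 23.8% for Th, 15.2% for Slc18a2 and 10.6% for Ddc. Genotype differences were -0.07 on control diet (SE 0.60, limma adjusted p = 1; 95% interval of the fold 0.404 to 2.23) and -0.29 on high-fat diet (SE 0.57, adjusted p = 0.979), the latter being -0.55 without KO_HFD replicate 4 and -0.02 without WT_HFD replicate 2. The diet difference was 0.38 (SE 0.41, adjusted p = 0.797; interval of the fold 0.722 to 2.34), and the upper end of both intervals lay beyond 2-fold.

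Drd2 (ENSMUSG00000032259, chr9:49340627-49408177, plus strand) encodes the Gi-coupled D2 receptor, which also serves as autoreceptor of dopamine neurons. Its counts ranged from 404 to 499 in KO_CD (median 455), from 359 to 482 in WT_CD (median 448), from 356 to 598 in KO_HFD (median 409) and from 383 to 535 in WT_HFD (median 462). The groups overlapped. Genotype differences were 0.07 on control diet (SE 0.09, limma adjusted p = 1) and -0.05 on high-fat diet (SE 0.09, adjusted p = 0.974), and the diet difference was 0.003 (SE 0.062, adjusted p = 0.99).

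Drd1 (ENSMUSG00000021478, chr13:54051183-54055705, minus strand) encodes the Gs-coupled D1 receptor and was the gene with the largest diet difference relative to its error. Its counts ranged from 119 to 167 in KO_CD (median 142), from 112 to 191 in WT_CD (median 131), from 136 to 215 in KO_HFD (median 161) and from 125 to 173 in WT_HFD (median 162). Medians were higher on high-fat diet in both genotypes while the ranges overlapped. The diet difference was 0.17 (SE 0.07, limma adjusted p = 0.331), with 0.16 in wild type (SE 0.10, adjusted p = 0.743) and 0.18 in knockout (SE 0.09, adjusted p = 0.735). Genotype differences were 0.04 on control diet (SE 0.10, adjusted p = 1) and 0.05 on high-fat diet (SE 0.09, adjusted p = 0.974).

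Prlr (ENSMUSG00000005268, chr15:10177238-10349180, plus strand) encodes the prolactin receptor, which signals through Jak2 and Stat5. Its counts ranged from 1022 to 1246 in KO_CD (median 1162), from 1026 to 1161 in WT_CD (median 1137), from 1010.4 to 1338 in KO_HFD (median 1136) and from 960.3 to 1171 in WT_HFD (median 1044). The knockout medians were higher on both diets, and the ranges overlapped. The genotype difference was 0.11 on high-fat diet (SE 0.04, limma adjusted p = 0.948), 0.06 on control diet (SE 0.05, adjusted p = 1) and 0.08 averaged over diets (SE 0.03, adjusted p = 0.848). The diet difference was -0.04 (SE 0.03, adjusted p = 0.732).

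**Figure D1:**
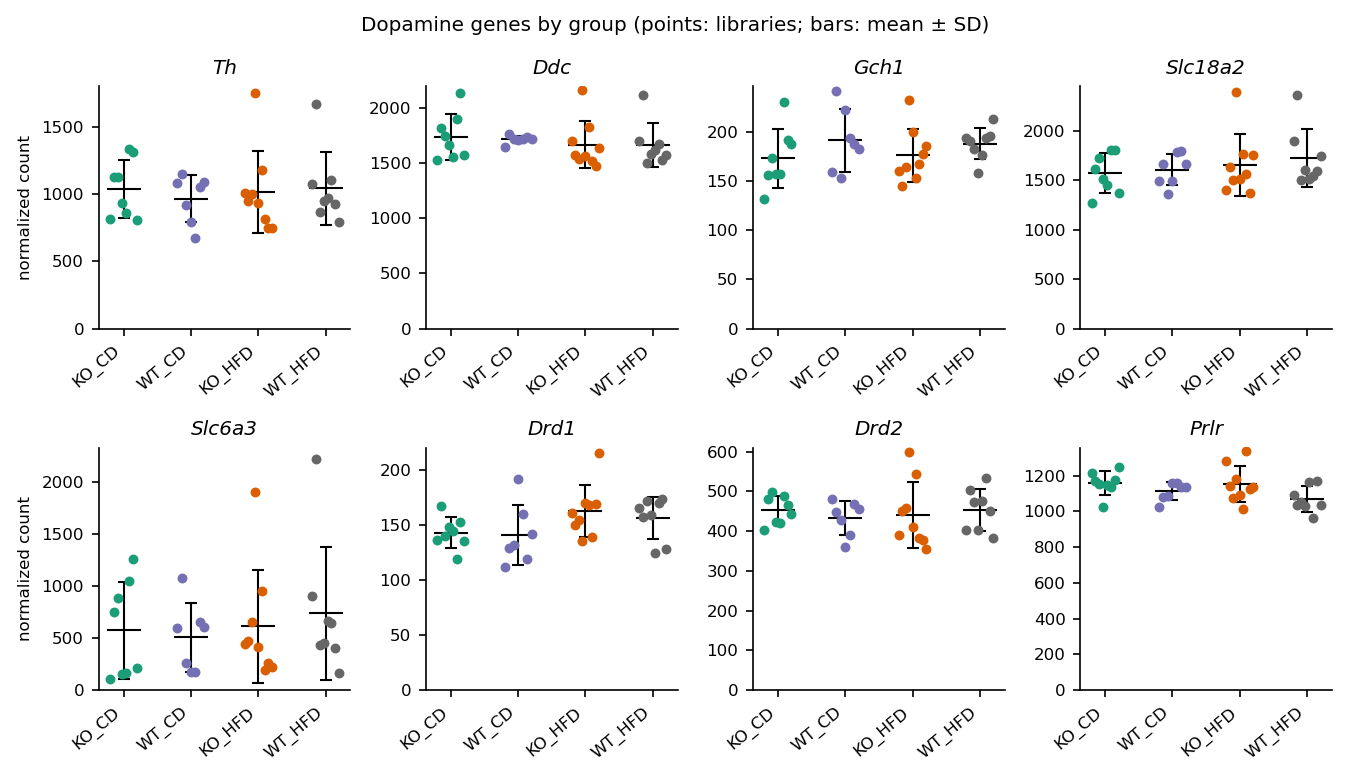
Normalized counts of the 8 genes (vertical axes, starting at 0) in the 4 groups, with 1 point per library and bars at the group mean ± SD. The groups overlap for every gene, and Slc6a3 shows the widest scatter, from 110.03 to 2219.

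The test addressed whether loss of Gpr101 or a high-fat diet altered these genes, at an adjusted p below 0.05 over all 19928 genes. For genotype, 0 of 8 genes passed on control diet, where 0.00502% of all genes passed (821 at an unadjusted p below 0.05), on high-fat diet (0.00502%, 1026 unadjusted) and averaged over diets (0.00502%, 1140 unadjusted), the 1 gene called being Gpr101. For diet, 0 of 8 passed in wild type (0.0251% of all genes, 1473 unadjusted), in knockout (0.0351%, 1402 unadjusted) and averaged over genotypes (0.336%, 2208 unadjusted). The interaction of genotype and diet called 0 of 8 and 0% of all genes (676 unadjusted), and the 8 interaction estimates ran from -0.22 for Slc6a3 to 0.05 for Prlr. In limma-voom fits of the recovered reads 0 of 8 passed as well. Among the 8 genes, 1 had an unadjusted p below 0.05 for genotype on high-fat diet and averaged over diets, Prlr in both, and 1 for diet averaged over genotypes, Drd1.

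The members' median absolute log2 fold change was 0.06 for genotype on control diet against 0.04 over all tested genes, and 0.05 for diet averaged over genotypes against 0.04. Because a tissue sample mixes cell types, fewer dopamine cells and less RNA per cell cannot be told apart in any of these values.

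Genes that work with the 8 did not pass either. Of 12 further genes of BH4 and dopamine synthesis, breakdown and reception, 11 were tested, and 0 passed in any of the 7 comparisons. Their median log2 fold change was 0.004 for genotype on control diet (-0.0003 over all genes), -0.01 for genotype on high-fat diet (-0.002) and 0.02 for diet averaged over genotypes (-0.001). The BH4 genes were abundant, with mean levels of 69.5 CPM per kb for the recycling enzyme gene Qdpr, 39.2 for Pcbd1, 9.57 for Spr and 5.28 for Pts, against 0.88 for Gchfr, the feedback regulator of Gch1. The genes of the breakdown enzymes Maob (18.5 CPM per kb) and Maoa (17.0) had higher mean levels than Th. The other receptors were rare, at 0.66 CPM per kb for Drd3, 0.524 for Drd5 and 0.0373 for Drd4, the last below the filter, and the second vesicular transporter Slc18a1 stood at 0.118.

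The remaining monoamine systems differed in how much of their own machinery was present. Noradrenergic markers were close to absent, with 0 to 11 reads per library for Dbh and 0 to 15 for Slc6a2. Serotonergic markers were also low, with 4 to 22 reads for Tph2, 0 to 7 for Slc6a4 and 0 to 14 for Fev. Histaminergic neurons, which reside in the tuberomammillary nucleus of the posterior hypothalamus and depend on Slc18a2, were well represented, with Hdc, encoding histidine decarboxylase, at 8.79 CPM per kb and the neurofilament gene Prph at 7.50. Phox2a was the only noradrenergic gene that passed the filter, at a median of 10.6 normalized counts over all libraries. It was higher on high-fat diet (2.09, SE 0.24, limma adjusted p = 4.86e-07). Its log2(normalized count + 1) values reached at most 2.84 in KO_CD and 3.05 in WT_CD. They ran from 3.49 to 4.77 in KO_HFD and from 3.58 to 4.24 in WT_HFD. All control-diet values lay below the filter of 10 counts. The gene therefore entered the test through its high-fat libraries alone, so the filter and the test rest on the same difference.

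Within-group spread was set beside that of genes of similar abundance. Among the 1000 tested genes nearest in mean level, the SD of log2 values within groups put Slc6a3 (1.17) at the 99.9th percentile, Th (0.33) at the 99.5th, Slc18a2 (0.21) at the 98.8th, Ddc (0.15) at the 97.6th and Drd2 (0.18) at the 94.6th. Prlr (0.10) lay at the 87.8th, Gch1 (0.21) at the 83.3rd and Drd1 (0.20) at the 70.8th. These percentiles describe these libraries and are not a test.

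To see which genes shared this variation, each value was centred on its group mean and pairs were correlated over the 32 libraries, with 100000 permutations of libraries within groups. Of 28 pairs, 12 passed at an adjusted p below 0.05, all with positive r, and 9 passed by rank correlation. Without the 2 libraries farthest from the median of the first gene of each pair, 6 passed. Th and Slc6a3 had the highest r, 0.92 (rho 0.92, permutation p = 1e-05 for both, the smallest these permutations can give, adjusted p = 4.67e-05). Within groups r for this pair was 0.94 in KO_CD, 0.94 in WT_CD, 0.96 in KO_HFD and 0.93 in WT_HFD, and it was 0.92 without the 2 libraries farthest from the median of Th. Among mice of 149 days it was 0.92 and among those of 150 days 0.96.

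Drd2 joined the same axis, with positive r in each group, although single groups were not tested. Its r with Th was 0.79 (rho 0.80, permutation p = 1e-05, adjusted p = 4.67e-05; 0.73 without the 2 farthest libraries; 0.54 to 0.92 within groups; 0.88 and 0.81 within mice of 149 and 150 days). With Slc6a3 it was 0.77 (rho 0.78, permutation p = 1e-05, adjusted p = 4.67e-05; 0.73 without the 2 farthest; 0.55 to 0.95 within groups; 0.89 and 0.82 by age).

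Ddc followed Th and Slc6a3 in 3 of the 4 groups. Its r with Th was 0.84 (rho 0.77, permutation p = 1e-05, adjusted p = 4.67e-05; 0.72 without the 2 farthest; 0.52 and 0.92 by age), and within groups it was 0.94 in KO_CD, 0.90 in KO_HFD, 0.96 in WT_HFD and 0.03 in WT_CD, where Ddc itself varied by only 2.07%. With Slc6a3 it was 0.77 (rho 0.75, permutation p = 1e-05, adjusted p = 4.67e-05; 0.70 without the 2 farthest; 0.67 and 0.86 by age), with 0.17 in WT_CD and 0.82 to 0.90 in the other groups. Between Ddc and Drd2 r was 0.56 (rho 0.51, permutation p = 0.00149, adjusted p = 0.00464), with -0.19 in WT_CD, and 0.41 without KO_HFD replicate 4, where the adjusted p was 0.0557.

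Slc18a2 was tied most closely to Ddc, with r = 0.84 (rho 0.69, permutation p = 1e-05, adjusted p = 4.67e-05; 0.69 without the 2 farthest; 0.39 in WT_CD and 0.87 to 0.89 elsewhere; 0.66 and 0.93 by age). With Th it was 0.70 (rho 0.54, permutation p = 0.00018, adjusted p = 0.000665; 0.46 without the 2 farthest), with -0.03 in WT_CD and 0.76 to 0.96 elsewhere. With Slc6a3 it was 0.66 (rho 0.60, permutation p = 0.00019, adjusted p = 0.000665; 0.52 without the 2 farthest; 0.27 in WT_CD and 0.63 to 0.93 elsewhere). With Drd2 it was 0.47 (rho 0.35, permutation p = 0.0163, adjusted p = 0.0415), and 0.22 without the 2 farthest libraries; it did not pass without KO_HFD replicate 4 (r = 0.27, adjusted p = 0.316) or WT_HFD replicate 2 (r = 0.44, adjusted p = 0.0702), among others.

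Gch1 had weaker ties. Its r was 0.50 with Slc18a2 (rho 0.39, permutation p = 0.00392, adjusted p = 0.011; 0.32 without the 2 farthest) and 0.42 with Ddc (rho 0.26, permutation p = 0.0195, adjusted p = 0.0455; 0.32 without the 2 farthest), and without KO_HFD replicate 4 neither passed (r = 0.37, adjusted p = 0.11, and r = 0.27, adjusted p = 0.319). For Th with Gch1 it was 0.29 (permutation adjusted p = 0.207). Drd1 and Prlr were in 0 of the pairs that passed. For Drd1 r ran from -0.36 with Drd2 (adjusted p = 0.124) to 0.03 with Gch1, and for Prlr from -0.31 with Drd2 (adjusted p = 0.227) to 0.08 with Gch1.

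**Figure D2:**
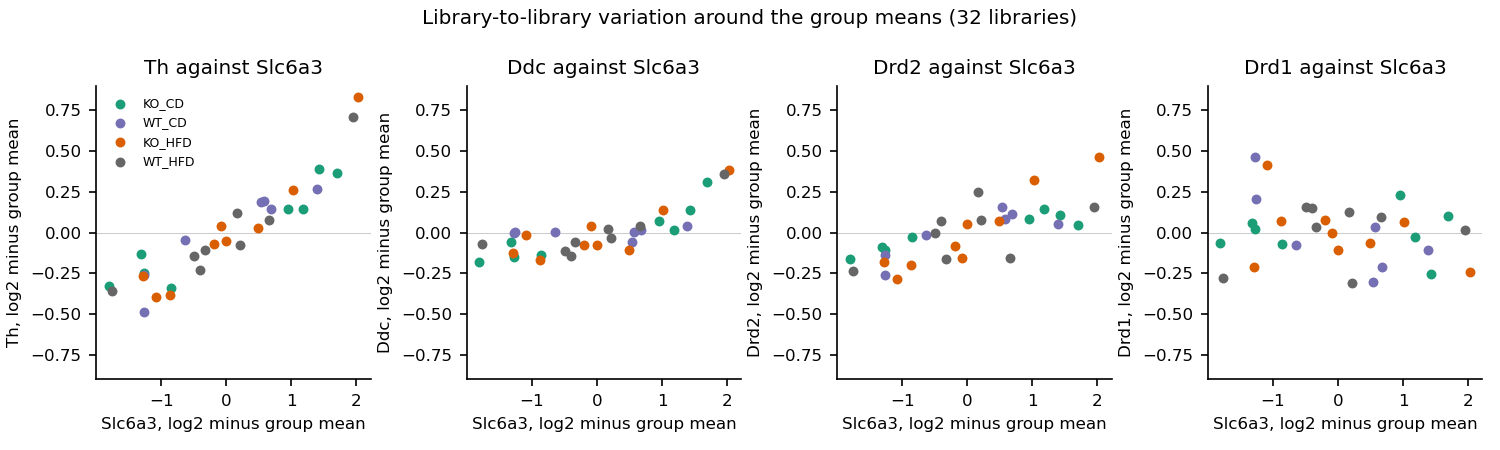
Log2 normalized values of Th, Ddc, Drd2 and Drd1 (vertical axes) against Slc6a3 (horizontal axes), each minus its group mean, for 32 libraries coloured by group. Th (r = 0.92), Ddc (r = 0.77) and Drd2 (r = 0.77) rise along Slc6a3, and Drd1 (r = -0.23) does not.

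The 2 libraries at the top of the Slc6a3 range were also high for the other genes of the axis. KO_HFD replicate 4 had 1903 normalized counts of Slc6a3, 4.13 times the median of all libraries, and ranked first of 32 for Th (1750.1), Ddc (2161), Slc18a2 (2396) and Drd2 (598). WT_HFD replicate 2 had 2219 counts of Slc6a3, 4.82 times the median, with rank 2 for Th (1668) and Slc18a2 (2365) and rank 3 for Ddc (2119). In the same libraries Drd1 stood at 136 and 157 counts and Prlr at 1181 and 1034.5, ranks 24, 14, 5 and 27. At the other end, KO_CD replicate 1 had 110.03 counts of Slc6a3, 0.239 times the median, and was the lowest of all libraries for Slc18a2 (1269.8) and Gch1 (132), with rank 26 for Th, 29 for Ddc and 23 for Drd2. KO_CD replicate 4, next lowest for Slc6a3 at 155 counts, ranked 20 for Th, 17 for Ddc, 20 for Slc18a2 and 20 for Drd2, so that low Slc6a3 did not always go with low values of the others.

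On the count scale within groups, 1 further count of Slc6a3 went with 0.476 counts of Th, 0.411 of Slc18a2, 0.323 of Ddc and 0.0811 of Drd2. Extended to no Slc6a3 at all, the same lines gave 728 counts of Th out of a mean of 1017, 1495 of 1692 for Ddc, 1389 of 1639 for Slc18a2 and 396 of 445 for Drd2. For all 4 genes the value of the line at 0 was the larger part of the mean. The lines are descriptions, and their end lies outside the measured range.

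Marker lists for cell classes and neighbouring regions were then set beside the 8 genes, as the mean log2 value of each list per library. Over 120 pairs of gene and list, 6 passed, all positive, and 5 passed by rank correlation. The list of 11 midbrain dopamine genes, which includes the transcription factor genes En1, Pitx3, Lmx1a, Lmx1b, Foxa1 and Foxa2 and holds none of the 8, accounted for 5 of them. Its genes were not alike: r with Slc6a3 was 0.95 for En1, 0.55 for Foxa2 and 0.37 for Lmx1a. The list's summed level ranged from 103 to 201 CPM between libraries, with group medians of 133 CPM in KO_CD, 136 in WT_CD, 128 in KO_HFD and 136 in WT_HFD, and 0 of its genes were at 0 in all libraries. Of its 11 genes, 0 passed the limma test in any comparison, and its median log2 fold change was 0.12 for genotype on control diet and 0.12 for diet averaged over genotypes, against -0.0003 and -0.001 over all genes.

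Slc6a3 had r = 0.93 with the midbrain list (rho 0.94, permutation p = 1e-05, adjusted p = 0.0004), with 0.91 to 0.96 within groups, 0.93 without the 2 farthest libraries and 0.93 and 0.97 by age. Th had 0.91 (rho 0.93, permutation p = 1e-05, adjusted p = 0.0004; 0.90 to 0.96 within groups; 0.92 without the 2 farthest; 0.90 and 0.96 by age). Drd2 had 0.82 (rho 0.82, permutation p = 1e-05, adjusted p = 0.0004; 0.76 to 0.96 within groups; 0.76 without the 2 farthest; 0.95 and 0.79 by age). Ddc had 0.72 (rho 0.68, permutation p = 2e-05, adjusted p = 0.0006; 0.72 without the 2 farthest), with 0.08 in WT_CD and 0.83 to 0.87 elsewhere. Slc18a2 had 0.61 (rho 0.54, permutation p = 0.00054, adjusted p = 0.0108; 0.53 without the 2 farthest), with 0.09 in WT_CD, and it did not pass without KO_HFD replicate 4 or without WT_HFD replicate 2, where r was 0.51 (adjusted p = 0.162) and 0.55 (adjusted p = 0.0583).

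The sixth pair was Slc18a2 with the histaminergic list of Hdc, Wif1 and Prph, at r = 0.60 (rho 0.71, permutation p = 0.00051, adjusted p = 0.0108; 0.26 in KO_CD and 0.65 to 0.77 elsewhere; 0.60 without the 2 farthest; 0.52 and 0.67 by age). Slc6a3 (r = -0.09, adjusted p = 0.924) and Th (r = -0.01, adjusted p = 0.979) did not pass with the histaminergic list. Removing a straight line on the midbrain list left an SD within groups of 0.167 log2 units for Slc18a2, from 0.207, and removing a line on the histaminergic list left 0.169. With both removed it was 0.0886. For Ddc the values were 0.148 at the start, 0.105 after the midbrain list and 0.0914 after both.

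Removing the midbrain list lowered the spread of the other genes on the axis. The SD of Slc6a3 fell from 1.17 to 0.427 log2 units, that of Th from 0.327 to 0.136 and that of Drd2 from 0.183 to 0.107. Gch1 (0.207 to 0.206), Drd1 (0.199 to 0.187) and Prlr (0.0976 to 0.0974) changed little. Since the lists and the 8 genes were measured in the same libraries, these values describe shared variation; whether tissue next to the hypothalamus contributed to it was not tested.

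**Figure D3:**
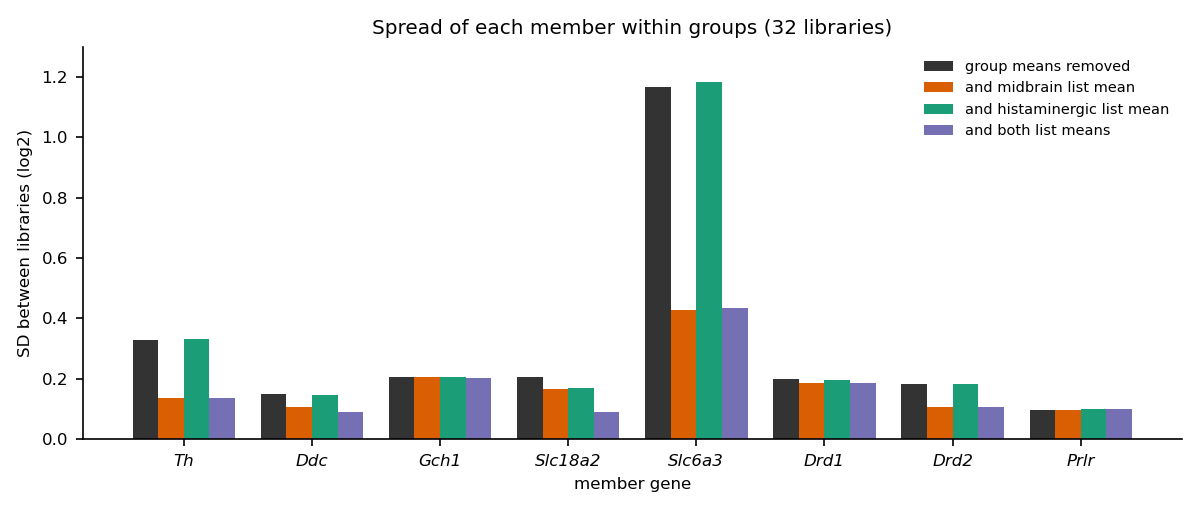
SD between libraries within groups (vertical axis, log2 units, starting at 0) of each gene, before and after removing straight lines on the midbrain list mean, the histaminergic list mean or both. Slc6a3 falls from 1.17 to 0.427 with the midbrain list, and Slc18a2 from 0.207 to 0.0886 with both lists.

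Lists for the striatum and the arcuate nucleus passed with 0 of the 8 genes. The 17 striatal genes, led by Adcy5 (29.0 CPM per kb) and Ptpn5 (26.8), had a summed level of 812 to 871 CPM. Their list mean had a within-group SD of only 0.03 to 0.08 log2 units, which limits what its correlations can show. Their r was 0.10 with Drd1 (rho -0.02, permutation adjusted p = 0.924), -0.42 with Drd2 (rho -0.38, adjusted p = 0.134), -0.24 with Th and -0.22 with Slc6a3. The arcuate list, led by Pomc (57.9 CPM per kb) and Npy (18.1), had r = -0.06 with Th (adjusted p = 0.924), -0.16 with Slc6a3, 0.41 with Slc18a2 (adjusted p = 0.231) and 0.10 with Prlr. Kiss1 of that list had 0 reads in every library, which allows up to 3 reads each by counting error. Since it is not given how reads were assigned to genes, this 0 was not taken to mean that the transcript was absent. Of 7 arcuate and 17 striatal genes tested, 0 passed in any comparison. The midbrain list had r = -0.39 with Drd1 (rho -0.28, permutation p = 0.0335, adjusted p = 0.276; -0.20 without the 2 farthest libraries), with -0.87 in WT_CD, -0.56 in KO_HFD, 0.01 in KO_CD and 0.09 in WT_HFD.

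Lists of the neighbouring thalamus and of cortex did not pass with any of the 8 genes. The thalamic list of 10 genes, led by Calb2 (160.4 CPM per kb) and Rgs16 (11.5), came nearest, with r = -0.52 with Slc18a2 (rho -0.53, permutation p = 0.00418, adjusted p = 0.0717; -0.77 to -0.31 within groups; -0.45 without the 2 farthest; -0.47 and -0.52 by age). The cortical list had r = -0.40 with Slc18a2 (rho -0.52, permutation adjusted p = 0.276) and -0.45 with Drd1 (rho -0.45, adjusted p = 0.2). With Th and Slc6a3 r was -0.09 and -0.06 for the thalamic list and 0.09 and 0.09 for the cortical list. Summed levels were 338 to 497 CPM for the thalamic and 314 to 356 CPM for the cortical list, and 0 of their genes passed the limma test.

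Prlr was compared with its own pathway and its known non-neuronal source. Its r was 0.33 with the 7 genes of prolactin signalling (rho 0.36, permutation adjusted p = 0.48), led by Stat5b (15.4 CPM per kb) and Jak2 (9.51), and 0.11 with the choroid plexus list (adjusted p = 0.924), whose summed level lay between 39.9 and 55.4 CPM. The choroid plexus gene Ttr had a median of 25.1 normalized counts and a highest value of 137. Among the signalling genes, Socs3, an inhibitor of cytokine receptor signalling, was higher on high-fat diet (0.53, SE 0.08, limma adjusted p = 2.95e-04), and the other 6 did not pass. Prl, the ligand gene, which is made in the pituitary, ranged from 0 to 90.5 normalized counts and had r = -0.07 with Prlr.

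**Figure D4:**
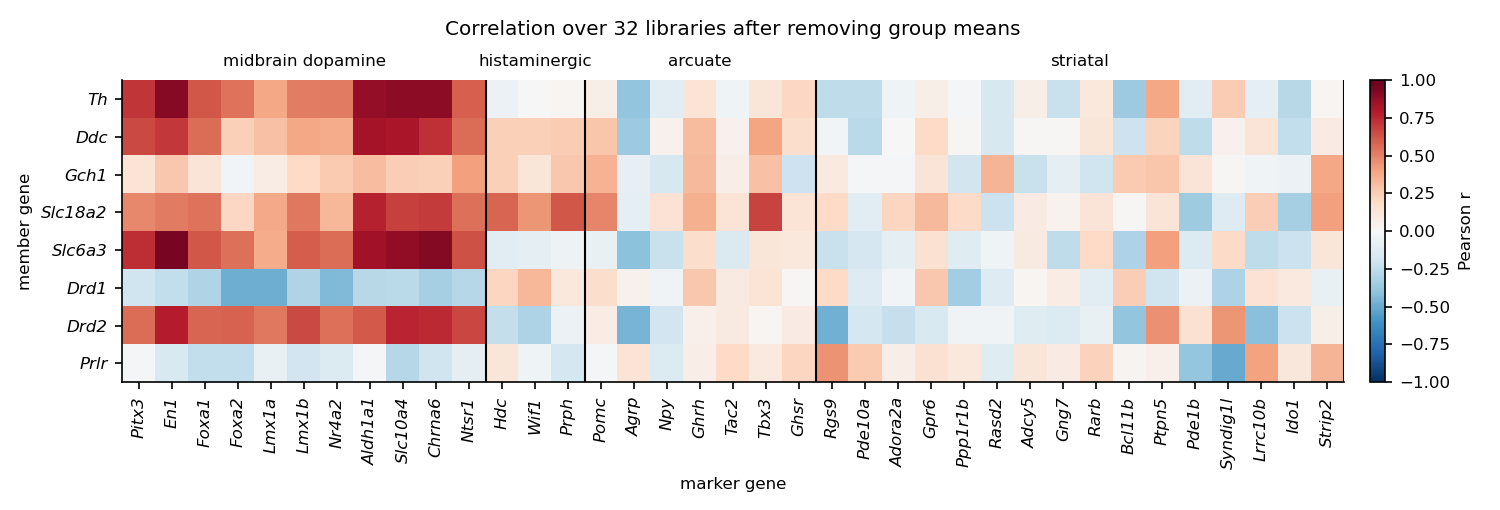
Pearson r over 32 libraries, after removing group means, of each of the 8 genes (rows) with single marker genes (columns) of 4 lists, 1 striatal gene not shown; red is positive and blue negative. Th, Ddc, Slc18a2, Slc6a3 and Drd2 are red across the midbrain genes (En1 with Slc6a3 at 0.95), and only Slc18a2 is strongly red across the histaminergic genes.

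Lists of other cells and states stood beside the group comparisons as follows. The 11 meningeal fibroblast genes, led by Mgp (13.4 CPM per kb) and Aebp1 (7.90), had a summed level of 67.4 to 308 CPM in KO_CD, 78.4 to 211 in WT_CD, 77.8 to 374 in KO_HFD and 70.5 to 385 in WT_HFD. All 11 estimates for diet averaged over genotypes were above 0 (median 0.50), and 0 passed the limma test. The 10 immediate early genes, led by Fos (19.7 CPM per kb) and Egr1 (19.5), had a summed level of 114 to 347 CPM in KO_CD and 200.2 to 506 in WT_CD, and all 10 estimates for genotype on control diet were below 0 (median -0.85, 0 passing). Neither list passed with any of the 8 genes: r of the meningeal list was -0.20 with Drd1 and -0.01 with Th, and r of the immediate early list was -0.18 with Drd1 and 0.21 with Th. Both had their largest r in size with Gch1, at -0.32 for the meningeal list (rho -0.23, permutation adjusted p = 0.4; -0.14 without the 2 farthest libraries) and 0.45 for the immediate early list (rho 0.44, permutation p = 0.02, adjusted p = 0.2; 0.13 to 0.72 within groups; -0.03 and 0.44 within mice of 149 and 150 days). Gch1 had an estimate of -0.14 for genotype on control diet, where the immediate early genes were also below 0. For genotype on high-fat diet Gch1 was at -0.10, and all 10 immediate early estimates were again below 0 (median -0.20). The part of these lists in the Gch1, Drd1 and Prlr estimates was not tested.

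The genes most like each member were found among 13862 tested genes with a mean of at least 1 CPM. For Slc6a3 they were En1 (r = 0.95 over 32 libraries), a midbrain transcription factor gene, Chrnb3 (0.94), Th (0.92), Chrna6 (0.92) and Ret (0.90). The counts of En1 ran from 4.57 to 112, those of Chrna6 from 53.5 to 365 and those of Chrnb3 from 27.7 to 198; both Chrn genes encode nicotinic receptor subunits. For Th the nearest were Slc6a3 (0.92), En1 (0.91), Ret (0.91), Chrnb3 (0.91) and Slc10a4 (0.90), and for Drd2 they were Ret (0.81), Th (0.79), En1 (0.78), the neurofilament gene Nefh (0.78) and Slc6a3 (0.77). Ret encodes the receptor subunit for glial cell line-derived neurotrophic factor.

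Ddc was nearest to Th (0.84), Slc18a2 (0.84), Aldh1a1 (0.84), which oxidises retinal and dopamine aldehydes, Slc10a4 (0.82) and Slc6a3 (0.77). Slc18a2 was nearest to Ddc (0.84), the glial potassium channel gene Kcnj10 (0.79), Gucy2c (0.79), Aldh1a1 (0.77) and Nadk (0.72). The other genes had no neighbour above 0.7. Gch1 reached 0.65 with Btbd11, 0.64 with Casr, 0.64 with Pex11a, 0.64 with Lrrfip1 and 0.64 with Ptk2. Drd1 reached 0.64 with Six3, a forebrain transcription factor gene, 0.64 with Tmem216, 0.63 with Efcab1, 0.62 with Six6 and 0.62 with Ptbp3. Prlr reached 0.68 with Tro, 0.65 with Scyl3, 0.65 with Cd276, 0.64 with Lamp5 and 0.64 with Gas7. Each is the highest of 13862 values and is given as a description.

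The genotype and diet comparisons were repeated with the midbrain list as a covariate, an alternative chosen after the data were seen. The SE of the averaged genotype difference fell from 0.116 to 0.0472 for Th and from 0.413 to 0.152 for Slc6a3. The estimate for Th became -0.03 (limma adjusted p = 0.967) and that for Slc6a3 -0.39 (adjusted p = 0.876), from -0.18 without the covariate. For diet averaged over genotypes, Slc6a3 changed from 0.38 to 0.07 (SE 0.15, adjusted p = 0.908) and Ddc from -0.06 to -0.09 (SE 0.04, adjusted p = 0.314). Of the 8 genes 0 passed in any comparison of this fit.

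**Figure D5:**
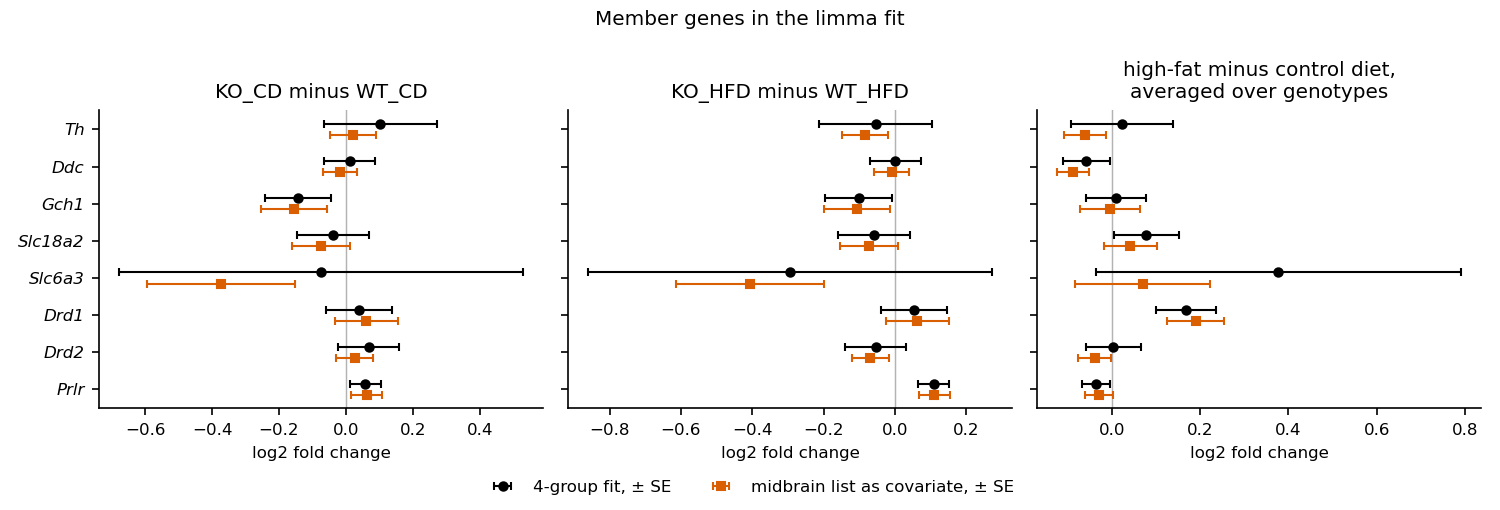
Log2 fold changes ± SE (horizontal axes, a different range in each panel) of the 8 genes for genotype on control diet, genotype on high-fat diet and diet averaged over genotypes, in the 4-group limma fit (black) and with the midbrain list mean as covariate (orange). The covariate shortens the error bars of Slc6a3 and Th, and 0 of the 8 genes passes the adjusted threshold in either fit.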

How the data were processed

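Stranded paired-end libraries were made from hypothalamic total RNA, per the labels' protocols. The submitters' processing notes list STAR 2.7.6a, Trim Galore 0.6.2, DESeq2 1.28.1, cutadapt 2.10, R 4.0.2 and the build GRCm38, without the role of each. How reads were assigned to genes and with which annotation is not given here. Each deposited value is the log2 of a size-factor-normalized count, with 0 reads listed as the log2 of 0.1. Undoing this returned whole reads for 100% of values (tolerance 0.001 reads).

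Because the deposited unit is log2, genes were tested with limma 3.58.1 (R 4.3.3, statmod 1.5.0) on log2(normalized count + 1), where the normalized count is the deposited value with its log undone. Genes reaching 10 in at least 7 libraries were kept, all 4 groups entered 1 fit with variance trend and robust moderation, and tests were two-sided with Benjamini-Hochberg adjustment over all genes. Fold changes of low genes are understated by the pseudocount. Fits were checked on data simulated with the same low dispersion for every gene. That check does not measure power for genes as variable as Slc6a3 and Th. Correlations used numpy 2.4.6 on values centred on group means. Of the identifiers 260 had no match in the annotation. All tests measure the spread between mice, and depth limits the lowest genes, where 1 read is 0.0361 CPM. Antisense genes that overlap Ddc and Slc18a2 had 44 and 16 reads over all libraries together, and a pseudogene on the other strand of Gch1 had 28. On the same strand, Prlr overlaps the protein-coding gene Gm21973 and Gch1 the pseudogene Gm18811, each with 0 reads. Whether reads shared with them were lost to Prlr or Gch1 was not tested.

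The members and lists were chosen with earlier results of these data known. Named genes are the 8 members, the 5 genes nearest to each, list genes that passed or that had the highest levels, and the further dopamine genes; others named were chosen after their values were seen. Alternatives covered pseudocount, filter, test, scaling, age, covariates, replicate number and each left-out library. A few genes of the lists are not reported here by name.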

Additional observations from a re-analysis of the deposited data

Results flagged for a closer look

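A library was set apart where its gap to the nearest value of its group took up more of the group's range than Dixon's critical value allows. Of 32 sets of values (8 genes in 4 groups), 9 held such a library. The rule marks about 1 in 20 sets of independent, normally distributed values. These sets were un-logged counts of genes that vary together, so the 9 cannot be set against that rate. KO_HFD replicate 4 was far above its group for Th (1750.1 normalized counts against 1178 in the next library), Slc18a2 (2396 against 1764) and Slc6a3 (1903 against 951). WT_HFD replicate 2 was far above its group for Th (1668 against 1108), Ddc (2119 against 1695), Slc18a2 (2365 against 1900) and Slc6a3 (2219 against 907). Without these 2 libraries 0 of the 8 genes passed in any comparison. Ddc was low in WT_CD replicate 1 (1642 against 1710), and Drd1 was high in KO_HFD replicate 9 (215 against 170).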

How the results depend on the processing

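Under 49 other settings (32 of them leaving out 1 library each), 0 of the 8 genes passed in any comparison, and the lowest adjusted p was 0.181, for the Drd1 diet difference (0.21) without WT_CD replicate 4. Of 27 fold changes followed in each setting, 17 kept their sign in all settings; for the sign changes of the others the cause was not tested.

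With age as a covariate the log2 fold change was -0.0002 for Ddc (genotype, control diet), -0.046 for Th, -0.0949 for Gch1 and -0.07 for Drd2 (diet). Within mice of 149 days it was -0.0491 for Ddc (genotype, control diet). With the midbrain list as covariate it was -0.0175 for Ddc on control diet and -0.0095 on high-fat diet (genotype), and -0.0619 for Th, -0.0048 for Gch1 and -0.0391 for Drd2 (diet). With the striatal list as covariate it was -0.0004 for Ddc (genotype, high-fat diet), -0.0122 for Th and -0.0303 for Drd2 (diet). Without the 2 libraries of highest Slc6a3, an alternative chosen after seeing the data, it was -0.0804 for Th, -0.0193 for Gch1 and -0.0367 for Drd2 (diet). With limma-voom quality weights it was 0.1009 for Slc6a3 (genotype, control diet), 0.0005 for Th (genotype, high-fat diet), -0.0019 for Gch1 and -0.0112 for Drd2 (diet). Upper-quartile scaling gave -0.0007 for Ddc (genotype, high-fat diet).

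Leaving out 1 library, the genotype difference on control diet ranged from -0.0321 to 0.0378 for Ddc, from -0.078 to 0.003 for Slc18a2, from -0.3167 to 0.184 for Slc6a3 and from -0.0115 to 0.1167 for Drd1. On high-fat diet it ranged from -0.1579 to 0.0478 for Th, from -0.0467 to 0.053 for Ddc, from -0.1283 to 0.0088 for Slc18a2 and from -0.5469 to -0.0151 for Slc6a3. The diet difference ranged from -0.0296 to 0.0505 for Th, from -0.0184 to 0.0387 for Gch1 and from -0.0254 to 0.0214 for Drd2.

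Over 45 pairs of same-numbered libraries the correlation of deviations ran from -0.195 to 0.321 (median 0.005), with 8 above 0.1. Differently numbered pairs were not computed, so whether replicate numbers pair the libraries was not tested. With the replicate block, Slc6a3 gave 0.0982 (genotype, control diet) and Gch1 -0.0058 (diet), 0 of 8 genes passed, 14 pairs of genes were correlated instead of 12, and 8 pairs of gene and list instead of 6.

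The 12 correlated pairs became 6 without the 2 libraries farthest from the median and 8 to 13 with 1 library left out, the 8 without KO_HFD replicate 4. The pairs of gene and list numbered 5 to 7 with 1 library left out. Over 37 settings Ddc with Gch1 did not pass in 18 and Slc18a2 with Drd2 in 14.

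Over all genes, calls for diet averaged over genotypes went from 67 to 43 without the filter and to 12 with age as a covariate, and from 41 to 87 with 1 library left out. Calls for diet went from 5 in wild type to 8 with quality weights, 3 without trend, 2 with 2 groups fitted, 1 with age and 3 with the replicate block (1 to 7 with 1 library left out), and from 7 in knockout to 4 by total reads, 3 without trend, 15 with the choroid plexus list and 13 with the midbrain list (3 to 10 with 1 library left out). For genotype 1 became 2 without the filter (control diet) and without trend (high-fat diet and averaged).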

Other observations

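Single genes outside the rule for named genes were looked at after their values were seen. Slc18a2 varied with 2 transcription factor genes of the ventral hypothalamus, Tbx3 (r = 0.68 over 32 libraries after removing group means) and Nkx2-1 (0.65), and inversely with Rgs16 (-0.72), a gene of the thalamic list (whole list -0.52), and Slc32a1 (-0.51), the vesicular transporter gene of GABA neurons. Th showed r = 0.12 with Tbx3 and 0.07 with Nkx2-1. Drd1 had r = -0.54 with Otx2. These are the extremes of many values and carry no test.

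In the WT_CD group Drd1 and Drd2 had r = -0.95 over 7 libraries, against -0.03 in KO_CD, -0.51 in KO_HFD and 0.29 in WT_HFD, and the difference between groups was not tested.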
